A study of Mus musculus with 7 samples.

Results

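The genes described here are 10 contractile genes of smooth muscle and of myofibroblasts, the contractile fibroblasts of healing tissue: Acta2, Actg2, Myh11, Myl9, Tagln, Cnn1, Tpm2, Lmod1, Smtn and Synpo2. They were chosen by name, each matched 1 gene identifier, and they are 10 of the 56854 identifiers listed in every library. Levels were measured by RNA sequencing of whole shoulder joints from 7 mice, each killed 2 weeks after the left supraspinatus tendon had been surgically repaired. The groups were wild type (n = 3) and Tnc-/- (n = 4), mice without Tenascin C, a matrix glycoprotein made in healing tendon. Both groups had the repair, so no unoperated joint enters any comparison, and the labels used here give no strain, age, sex or kind of Tnc allele. The labels do not say whether wild-type and Tnc-/- mice were littermates.

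Smooth muscle cells and myofibroblasts contract when myosin heads pull on filaments of actin. In both cell types the filaments are built of cell-type-specific actins and regulated through the myosin light chain, and the genes share control by serum response factor (SRF) with its myocardin-family partners. In a repaired joint these genes mark the walls of blood vessels, and Acta2 is also the usual marker of the myofibroblasts that form scar. Some of the set are not restricted to smooth muscle: Tpm2, a tropomyosin, and Synpo2, an actin-bundling protein, are also made by skeletal muscle fibres, which are part of a dissected shoulder.

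The libraries held 13464057 to 18503833 gene counts in wild type and 19250322 to 28191101 in Tnc-/-, and the counting runs of the 2 genotypes cannot be told apart from the genotype. Levels are in CPM, a gene's counts relative to its library's total after scaling by edgeR's TMM method. The targeted gene Tnc averaged 352 CPM (SD 75.5, n = 3) in wild type and 41.8 CPM (SD 9.26, n = 4) in Tnc-/-, and its log2 fold change was -3.08 (SE 0.21; adjusted p = 2.8e-04 by edgeR). Wild-type libraries 2 and 3 stood apart: over 17791 genes their log2 CPM correlated at 0.731 to 0.797 with the Tnc-/- libraries, against 0.96 to 0.964 for wild-type library 1. The 1775 olfactory and vomeronasal receptor genes, which a joint should lack, summed to 85.6 CPM in wild-type library 1, to 1301 and 920 CPM in libraries 2 and 3, and to between 36.0 and 43.5 CPM in the Tnc-/- libraries. The counts of calls and the fold changes of the contractile genes are therefore also given without library 1 and without libraries 2 and 3, together after the single genes.

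The sequences upstream of 3 of the genes are shown because their data bear most on what follows: Smtn was the member past the test's threshold, Myl9 had groups that did not overlap, and Acta2 is the myofibroblast marker. Each is the 250 bases before the gene's start in RefSeq (build GRCm38.p6), read 5′ to 3′ on the gene's strand. The windows are chr11:3539293-3539542 on the minus strand for Smtn, chr2:156775214-156775463 on the plus strand for Myl9 and chr19:34255374-34255623 on the minus strand for Acta2. Capitals mark matches to the CArG box, the letters that SRF binds, with at most 1 letter changed, and to CATTCC on either strand, the letters of the MCAT element bound by TEAD factors.
Smtn: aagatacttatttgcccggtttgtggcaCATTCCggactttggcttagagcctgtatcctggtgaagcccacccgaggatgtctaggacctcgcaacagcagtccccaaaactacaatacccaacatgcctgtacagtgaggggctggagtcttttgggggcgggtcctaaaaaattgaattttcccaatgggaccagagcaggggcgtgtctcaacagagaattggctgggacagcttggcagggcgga
Myl9: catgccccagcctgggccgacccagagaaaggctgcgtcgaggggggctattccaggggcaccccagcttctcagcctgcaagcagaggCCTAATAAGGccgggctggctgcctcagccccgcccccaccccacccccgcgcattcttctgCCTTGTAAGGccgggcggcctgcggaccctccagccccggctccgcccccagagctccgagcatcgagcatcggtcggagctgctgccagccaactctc
Acta2: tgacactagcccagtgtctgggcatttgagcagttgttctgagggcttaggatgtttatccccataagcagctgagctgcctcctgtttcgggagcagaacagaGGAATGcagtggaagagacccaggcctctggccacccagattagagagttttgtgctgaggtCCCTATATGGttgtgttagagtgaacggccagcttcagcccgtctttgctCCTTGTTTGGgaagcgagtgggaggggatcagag
Myl9 held 1 exact CArG box, CCTAATAAGG, at -161 to -152 from the start, and 1 with a letter changed, CCTTGTAAGG, at -99 to -90. Acta2 held none that was exact and 2 with a letter changed, CCCTATATGG at -84 to -75 and CCTTGTTTGG at -34 to -25, besides GGAATG at -146 to -141, which is CATTCC on the other strand. Smtn held no CArG match in this window and CATTCC at -222 to -217. Of all 32851 promoter windows of this length, 1.47% held an exact CArG box, 18.6% a CArG box with at most 1 letter changed and 12.6% CATTCC on either strand. RefSeq promoters were found for 7 of the 10 genes, without Tagln, Myh11 and Actg2, and among the other 4 only Lmod1 had a match (2 CArG boxes with a letter changed and 1 CATTCC).

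The study set Tnc-/- against wild-type joints to ask how loss of Tenascin C affects healing after repair, and that comparison is read here for the contractile genes. Of the 10 genes, Smtn rose in Tnc-/- and the other 9 did not pass the test (edgeR quasi-likelihood test, Benjamini-Hochberg adjusted p under 0.05 over all 17791 genes tested). All 10 passed the filter on low counts. Over all genes 10.3% were called higher and 18.7% lower (29.0% in either direction), so 1 of 10 higher and 0 of 10 lower is no more than the background. At an unadjusted p under 0.05, edgeR gave 2 members higher and 0 lower (17.5% and 24.8% of all genes), DESeq2 3 higher and 1 lower (16.8% and 26.8%), and limma voom 2 higher and 0 lower (18.6% and 13.8%). With adjustment, DESeq2 called 1 member higher and 0 lower, where 12.3% of all genes were higher and 22.9% lower. limma voom also called 1 higher and 0 lower, where the shares over all genes were 4.09% and 1.55%. The median log2 fold change of the 10 was 0.14, with 7 above 0, against -9.0e-04 over all genes. With libraries scaled by their totals, 4 of the 10 were above 0 and their median was -0.10, against -0.24 over all genes. In 2 members, Smtn and Myl9, every Tnc-/- library lay above every wild-type library, as in 17.7% of all genes; in none did every Tnc-/- library lie below, as in 17.4%. In whole joints, fewer cells of a type and less RNA per cell cannot be told apart.

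**Figure D1:**
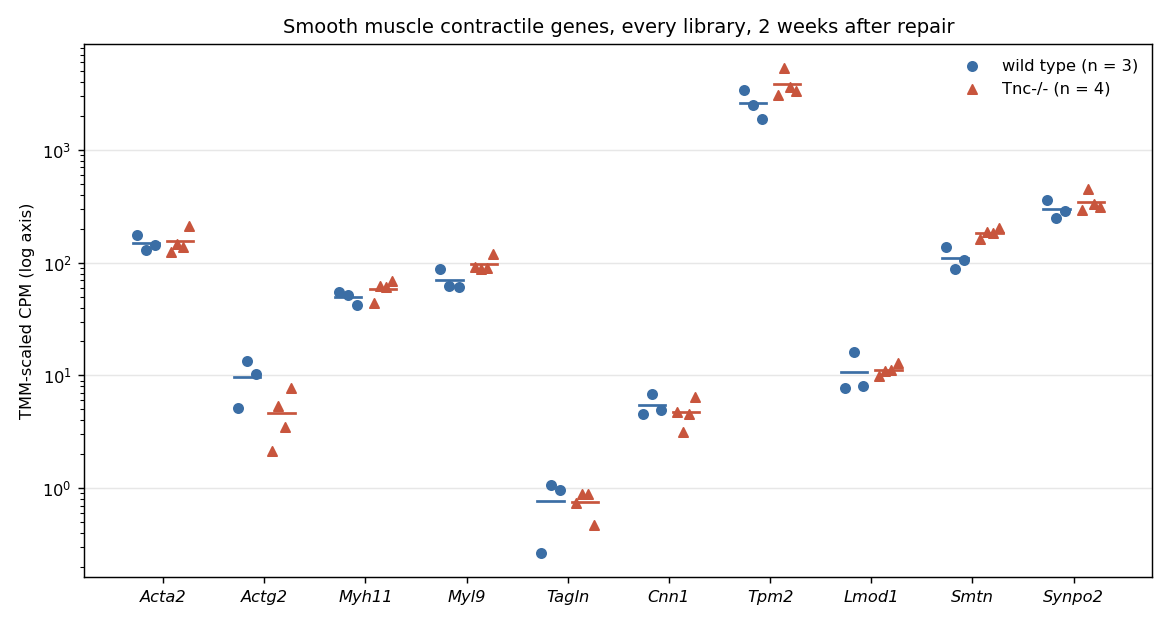
TMM-scaled CPM of each of the 10 genes (log axis) in every wild-type (circles, n = 3) and Tnc-/- library (triangles, n = 4), with horizontal bars at the group means. Smtn and Myl9 show groups that do not overlap; Tpm2 lies between 1892 and 5293 CPM and Tagln between 0.268 and 1.06 CPM.

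Smtn (ENSMUSG00000020439, chromosome 11) encodes smoothelin, an actin-binding protein of contractile smooth muscle. Its level was 138, 87.5 and 106 CPM in the wild-type libraries, numbered 1 to 3, and 161, 188, 184 and 203 CPM in Tnc-/- libraries 1 to 4. All Tnc-/- libraries were above all wild-type libraries, with wild-type library 1 the closest. Smtn averaged 111 CPM (SD 25.6, n = 3) in wild type and 184 CPM (SD 17.1, n = 4) in Tnc-/-, and its log2 fold change was 0.73 (SE 0.18; adjusted p = 0.0166 by edgeR). Without TMM scaling the groups differed by 0.53 in log2 CPM. An exact permutation test, two-sided, gave p = 0.0571, the lowest value that the form of the test used here can give. Over the 7 fits that left out 1 library the fold change of Smtn was 0.59 to 1.02, and its call held in 4. It was 1.02 without wild-type library 1 (adjusted p = 8.2e-05), 0.59 without wild-type library 2 (edgeR, adjusted p = 0.0509), 0.71 without library 3 (adjusted p = 0.0715) and 0.73 without Tnc-/- library 3 (adjusted p = 0.0517). Without wild-type libraries 2 and 3 together it was smaller, at 0.41 (adjusted p = 0.195). With the summed receptor level as a covariate it was 0.23 (adjusted p = 0.627, where 1.16% of all genes were called higher). That covariate was itself lower in every Tnc-/- library (36.0 to 43.5 CPM) than in every wild-type library (85.6 to 1301 CPM). It therefore shares part of the genotype difference, here and in the later fits that use it. With the replicate number as a block the fold change was 0.71 (adjusted p = 0.0733). In GENCODE M21, 16.3% of the exon bases of Smtn lie opposite those of Gm11946, an antisense gene at 0 counts in every library; whether the authors counted by strand is not given in the sources used here.

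The actins of the set did not pass the test. Acta2 (ENSMUSG00000035783, chromosome 19) encodes smooth muscle alpha-actin. It was at 177, 129 and 142 CPM in wild type and at 124, 146, 137 and 212 CPM in Tnc-/-. The groups overlapped throughout, and Tnc-/- library 4 was the highest of all. The log2 fold change of Acta2 was 0.053 (SE 0.21; edgeR, adjusted p = 0.87) and its sign depended on the scaling, with -0.19 when libraries were scaled by their totals. Actg2 (ENSMUSG00000059430, chromosome 6) encodes the gamma-actin of visceral smooth muscle and had 58 to 201 counts per library. It was at 5.15, 13.4 and 10.3 CPM in wild type and 2.15, 5.35, 3.47 and 7.74 CPM in Tnc-/-. Wild-type libraries 2 and 3 were above every other library, whereas wild-type library 1 lay inside the Tnc-/- range. Its log2 fold change was -1.04 (SE 0.51; edgeR, adjusted p = 0.158), and it was -0.15 without wild-type libraries 2 and 3. The actin transcripts are related in sequence, but no 50-base window of Acta2-201 occurs in Acta1-201 of skeletal muscle or in Actg2-201, and the longest identical run between any pair was 29 bases (GENCODE M21).

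The motor subunits are Myh11 (ENSMUSG00000018830, chromosome 16), the smooth muscle myosin heavy chain and the most specific marker of mature smooth muscle in the set, and Myl9 (ENSMUSG00000067818, chromosome 2), the regulatory light chain whose phosphorylation starts contraction. Myh11 was at 55.1, 51.4 and 42.3 CPM in wild type and 44.2, 61.5, 60.5 and 69.3 CPM in Tnc-/-. Tnc-/- library 1 was within the wild-type range and the other 3 were above it. The log2 fold change of Myh11 was 0.25 (SE 0.17; edgeR, adjusted p = 0.317). Myl9 was at 87.1, 62.0 and 60.8 CPM in wild type and 91.4, 88.5, 90.4 and 120 CPM in Tnc-/-. The groups did not overlap, but the gap between wild-type library 1 and the lowest Tnc-/- library was small. Its means were 70.0 CPM (SD 14.8, n = 3) and 97.5 CPM (SD 14.8, n = 4), and its log2 fold change was 0.48 (SE 0.18; adjusted p = 0.0715 by edgeR). Without TMM scaling the Myl9 groups differed by 0.27 in log2 CPM (p = 0.229 by an exact permutation test, two-sided).

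The thin-filament regulators other than Smtn did not pass the test either. Tpm2 (ENSMUSG00000028464, chromosome 4), the beta-tropomyosin that lies along actin filaments, was at 3401, 2475 and 1892 CPM in wild type and 3085, 5293, 3594 and 3346 CPM in Tnc-/-. Tnc-/- library 2 was the highest, and wild-type library 1 lay within the Tnc-/- range. The log2 fold change of Tpm2 was 0.56 (SE 0.28; edgeR, adjusted p = 0.157). Cnn1 (ENSMUSG00000001349, chromosome 9), calponin, an actin-bound inhibitor of the myosin ATPase, was at 4.51, 6.84 and 4.92 CPM in wild type and 4.70, 3.12, 4.59 and 6.49 CPM in Tnc-/-. The Cnn1 groups overlapped, and the log2 fold change was -0.20 (SE 0.40; adjusted p = 0.74 by edgeR). Lmod1 (ENSMUSG00000048096, chromosome 1), leiomodin, which nucleates actin filaments, was at 7.67, 16.3 and 8.08 CPM in wild type and at 9.80, 11.0, 11.1 and 13.0 CPM in Tnc-/-. Wild-type library 2 alone was above the Tnc-/- range of Lmod1 and libraries 1 and 3 were below it, and the log2 fold change was 0.071 (SE 0.32; edgeR, adjusted p = 0.889). Synpo2 (ENSMUSG00000050315, chromosome 3), synaptopodin-2, was at 357, 249 and 288 CPM in wild type and 293, 447, 333 and 309 CPM in Tnc-/-. Its groups overlapped, with Tnc-/- library 2 the highest, and its log2 fold change was 0.21 (SE 0.20; edgeR, adjusted p = 0.448).

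Tagln (ENSMUSG00000032085, chromosome 9) encodes transgelin, normally among the most abundant transcripts of smooth muscle, but had only 5, 16 and 16 counts in wild type and 20, 16, 16 and 9 counts in Tnc-/-. Per kilobase of exon (GENCODE M21), Tagln averaged 0.386 CPM (SD 0.219, n = 3) in wild type, against 68.0 CPM (SD 11.3, n = 3) for Acta2. In wild-type libraries 2 and 3 Tagln was at 0.535 and 0.489 CPM per kilobase and the receptor genes that a joint should lack at 0.225 and 0.159. In the other 5 libraries the ratio of Tagln to these genes was larger, at 0.135 against 0.0148 CPM per kilobase in wild-type library 1 and at 0.237 to 0.451 against 0.00623 to 0.00752 in Tnc-/-. In GENCODE M21, 62.4% of the exon bases of Tagln lie opposite Gm48529, an antisense gene with 0 counts in all 7 libraries, and 5.43% opposite Pcsk7. Reads that fell on more than 1 gene made up 11.4 to 11.6% of the reads listed in the Tnc-/- files. The part of this overlap in the low counts was not tested, and the Tagln values are uncertain as expression levels. Its log2 fold change of -0.029 had an SE of 0.68 (edgeR, adjusted p = 0.981).

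Ordered by level per kilobase of exon in wild type, Tpm2 came first at 890 ± 262 CPM per kilobase (SD, n = 3), followed by Acta2 (68.0), Myl9 (60.2), Smtn (25.3), Synpo2 (22.8), Myh11 (6.53), Actg2 (6.17), Lmod1 (2.70), Cnn1 (1.98) and Tagln (0.386). The ranges over the 3 wild-type libraries overlapped between Acta2 and Myl9, Smtn and Synpo2, Myh11 and Actg2, Actg2 and Lmod1, and Lmod1 and Cnn1, so these neighbours are not separated beyond their spread. In Tnc-/- the order was the same except that Myl9 (83.9 ± 12.8 CPM per kilobase; SD, n = 4) preceded Acta2 (70.5 ± 17.8), with overlapping ranges. The ranges of Smtn and Synpo2, 36.8 to 46.3 and 22.4 to 34.1 CPM per kilobase, were apart in Tnc-/-.

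The 10 genes did not all peak in the same Tnc-/- library. Most of them, 7 (Acta2, Actg2, Myh11, Myl9, Cnn1, Lmod1 and Smtn), were highest in library 4, whereas Tpm2 and Synpo2 were highest in library 2. Tagln was highest in library 3, but had 16 counts there and 16 in library 2. Of all genes tested, 27.9% were highest in Tnc-/- library 4 and 25.4% in library 2. Some marker lists of other cells peaked in the same libraries. Of the 16 activated fibroblast genes (Postn, Fap, Col1a1 and others), 15 were highest in Tnc-/- library 4. So were 7 of the 12 genes of the mural cell list, drawn up for pericytes, which are among the cells of vessel walls. Of the 18 skeletal muscle genes, 17 were highest in Tnc-/- library 2. Other lists did not follow: 12 of 15 blood and marrow genes were highest in Tnc-/- library 1, where 0 of the 10 contractile genes were, and the 12 endothelial genes were spread over libraries 1 to 4 (2, 4, 1 and 5 genes). The summed fibroblast level was 47300 CPM in Tnc-/- library 4 and 26760 to 30970 CPM in the other 3, and the summed skeletal muscle level was 74760 CPM in library 2 and 48910 to 57430 CPM in the others.

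**Figure D2:**
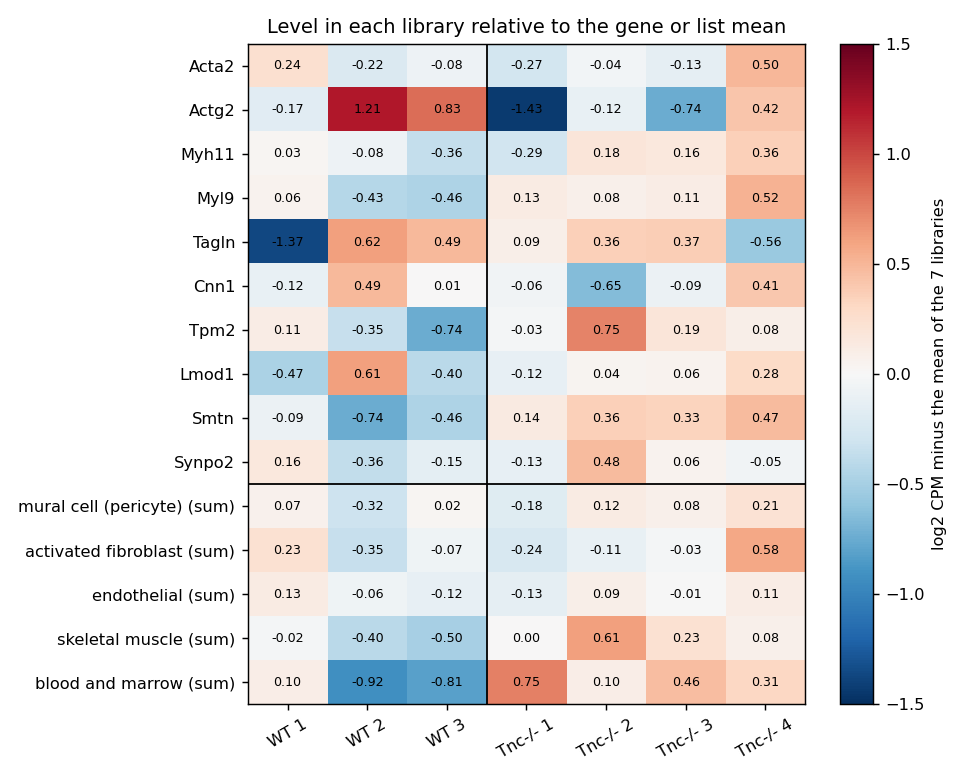
Log2 CPM of each gene, and of the summed CPM of 5 marker lists, in each library minus its mean over the 7 libraries (colour and printed value; wild type left of the vertical line, Tnc-/- right). Tpm2 and the skeletal muscle sum peak in Tnc-/- library 2 (0.75 and 0.61), Acta2 and the activated fibroblast sum in Tnc-/- library 4 (0.50 and 0.58), and Actg2 is highest in wild-type libraries 2 and 3 (1.21 and 0.83).

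Each gene was next set against the summed counts of these lists, a ratio that does not depend on how libraries are scaled; this description was chosen after the values were seen, and no test was applied. Per 1000 counts on the skeletal muscle list, Tpm2 had 70.9, 67.1 and 54.8 in wild type and 63.1, 70.8, 62.6 and 64.9 in Tnc-/-. The highest Tpm2 ratio was 1.29 times the lowest over the 7 libraries, while its CPM differed 2.80 times between the highest and the lowest library. Synpo2 had 7.43, 6.74 and 8.35 per 1000 skeletal muscle counts in wild type and 6.0, 5.97, 5.79 and 6.0 in Tnc-/-. Within Tnc-/- the Synpo2 ratio varied 1.04 times and its CPM 1.52 times, and all 4 Tnc-/- ratios lay below all 3 wild-type ratios. Over all 7 libraries the Synpo2 ratio varied 1.44 times and its CPM 1.8 times. Tpm2 thus moved with the skeletal muscle genes across all libraries and Synpo2 within Tnc-/-; the part of muscle tissue in these levels was not tested.

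Acta2 was steadiest against the activated fibroblast list, with 4.75, 5.17 and 4.71 counts per 1000 in wild type and 4.64, 4.98, 4.42 and 4.48 in Tnc-/-. The highest ratio was 1.17 times the lowest over all 7 libraries, against 1.71 times for the CPM of Acta2. Against the mural cell list the Acta2 ratio varied 1.41 times. Col1a1 and Col3a1 held 32.2 to 39.3% and 32.7 to 37.1% of the fibroblast sum; with the geometric mean of the 16 genes in its place, a setting added after the data were seen, the Acta2 ratio varied 1.16 times. Myh11, Lmod1 and Smtn were steadier within Tnc-/- against the mural cell list, where their ratios varied 1.19, 1.11 and 1.06 times, than against the fibroblast list, at 1.43, 1.36 and 1.49 times. Cnn1 and Actg2 went the other way within Tnc-/-, at 1.95 and 2.74 times against the mural cell list and 1.65 and 2.27 times against the fibroblast list. Over all 7 libraries the Myh11 ratio varied 1.54 times against the mural cell sum and 1.5 times against the fibroblast sum, but 1.26 and 1.64 times against the geometric means. Against the mural cell sum the Smtn ratio varied 1.76 times over all 7 libraries and the Lmod1 ratio 2.77 times, more than the 2.12 times of the CPM of Lmod1. Rgs5 alone held 33.0 to 43.5% of the mural cell sum. Smtn had 141, 117 and 112 counts per 1000 mural cell counts in wild type and 196, 185, 187 and 187 in Tnc-/-, so its groups did not overlap on this scale either. The Smtn ratio to the skeletal muscle list, 2.37 to 3.08 in wild type and 2.51 to 3.93 in Tnc-/-, did overlap. Myl9 had 88.9, 82.6 and 64.0 counts per 1000 mural cell counts in wild type and 111, 87.1, 91.8 and 110 in Tnc-/-, with overlap. Its ratio to the skeletal muscle list overlapped too. Against the activated fibroblast list both genes had every Tnc-/- ratio above every wild-type ratio. How many of all genes are apart on these scales was not examined.

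**Figure D3:**
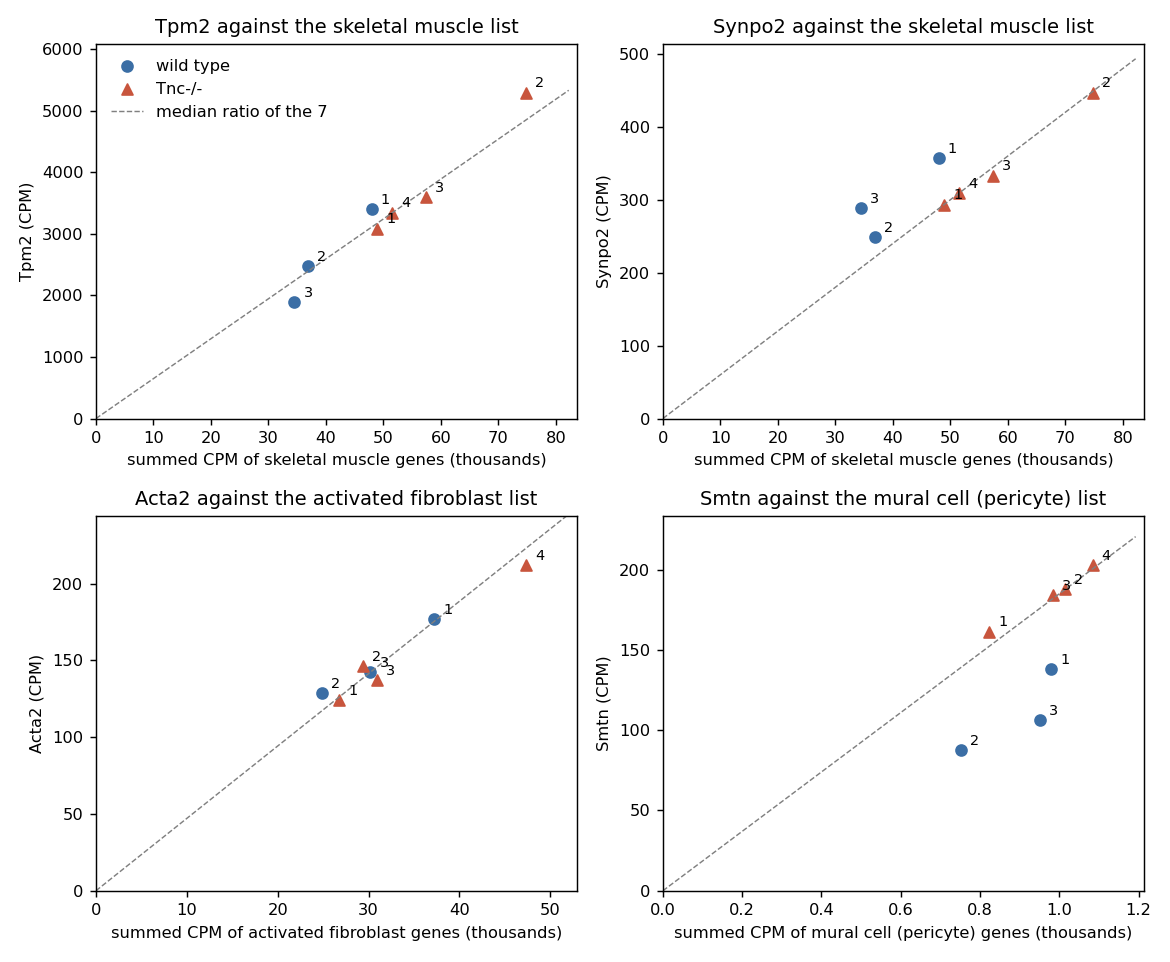
CPM of Tpm2, Synpo2, Acta2 and Smtn against the summed CPM (in units of 1000) of a marker list, 1 point per library with its replicate number; the dashed line is the median ratio of the 7 libraries. Tpm2 and Acta2 lie along the line in both genotypes, while Smtn lies below it in the 3 wild-type libraries, at 112 to 141 per 1000 mural cell counts, and Synpo2 above it.

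The calls depended on which wild-type libraries were used. Without wild-type library 1, 5 of the 10 genes were past the threshold, where 24.3% of all genes were called higher and 39.9% lower. Smtn rose by 1.02 on the log2 scale, Tpm2 by 0.90, Myl9 by 0.76 and Synpo2 by 0.46, and Actg2 fell by 1.25 (edgeR, adjusted p from 8.2e-05 to 0.0445). Without wild-type libraries 2 and 3, no member was past it (edgeR; 1 higher and 0 lower at an unadjusted p under 0.05), where 2.53% of all genes were called higher and 1.92% lower; the spread then came from Tnc-/- and the lone wild-type library is assumed to vary like it. Against library 1 alone the log2 fold change of Myl9 was 0.16, that of Tpm2 0.17, that of Myh11 0.088 and that of Lmod1 0.54 (adjusted p from 0.236 to 0.833). Relative to wild-type library 1, the mean of wild-type libraries 2 and 3 was lower in Smtn, Myl9, Tpm2, Synpo2, Acta2 and Myh11, at 0.64 to 0.85 times, and higher in Tagln, Actg2, Lmod1 and Cnn1, at 3.79, 2.30, 1.59 and 1.30 times. The 4 genes that were higher there are the 4 of lowest CPM in the set. Per kilobase of exon, Actg2 in wild-type library 2 stood at 8.58 CPM and the receptor genes at 0.225 CPM. The part of the background signal in these differences was not tested.

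**Figure D4:**
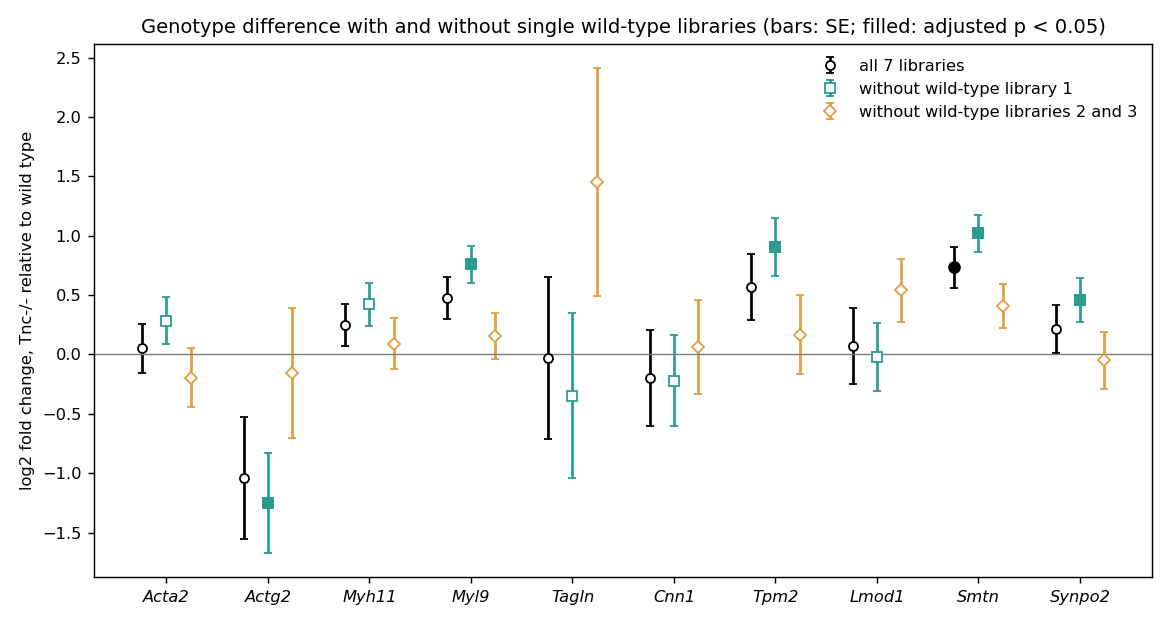
Log2 fold change of Tnc-/- relative to wild type for each gene with its SE (bars), from all 7 libraries (circles), without wild-type library 1 (squares) and without wild-type libraries 2 and 3 (diamonds); filled symbols have an adjusted p under 0.05. Smtn is the filled circle at 0.73, 5 squares are filled and no diamond is.

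Other parts of the contractile machinery were read from a list of 25 genes, of which 24 were tested; Kcnmb1 was listed at 0 in every library. In Tnc-/- 5 rose (Myh9, Pdlim7, Flna, Actn1 and Myl6), 3 fell (Itga8, Prkg1 and Rock1) and 16 did not pass, with a median log2 fold change of 0.031. These 8 of 24 calls are close to the 29.0% called over all genes, where 10.3% were higher and 18.7% lower. Prkg1 was at 56.25, 194 and 163 CPM in wild type and between 39.9 and 59.8 CPM in Tnc-/-. Wild-type library 1 thus lay inside the Tnc-/- range of Prkg1. Myh9, the heavy chain of non-muscle myosin, averaged 287 CPM (SD 106, n = 3) in wild type and 728 CPM (SD 87.0, n = 4) in Tnc-/-, with a log2 fold change of 1.34 (SE 0.25; adjusted p = 0.00856 by edgeR). Pdlim7, an actin-associated scaffold protein, rose from 142 ± 29.5 to 249 ± 33.3 CPM (0.81, SE 0.18; edgeR, adjusted p = 0.0135), and its fold change was 0.68 without wild-type library 3 (adjusted p = 0.057). Its call was also lost with the replicate block (0.75, edgeR, adjusted p = 0.0671) and by DESeq2 with Bonferroni adjustment (0.77, adjusted p = 0.515). Itga8, the integrin alpha-8 chain, whose dimer binds tenascin-C and fibronectin, fell from 22.2 ± 7.85 to 6.82 ± 0.937 CPM (-1.70, SE 0.29; edgeR, adjusted p = 0.00732). In these 3 genes the ranges of the genotypes were apart. With the background covariate none of the 3 was past the threshold, at 0.62 for Myh9, 0.42 for Pdlim7 and -0.73 for Itga8 (edgeR, adjusted p from 0.268 to 0.43). Without wild-type libraries 2 and 3 the 3 calls were lost, at 0.83, 0.53 and -0.98 (adjusted p from 0.0564 to 0.147), and of the 24 genes 0 were past the threshold (edgeR; 5 higher and 2 lower at an unadjusted p under 0.05); without wild-type library 1 there were 8 higher and 4 lower, where 24.3% and 39.9% of all genes were. Myh9, Flna and Actn1 are expressed by many cell types, blood cells included, and the summed blood and marrow list was 4024 to 8179 CPM in wild type and 8193 to 12850 CPM in Tnc-/-, apart by a small gap. Its part in these calls was not tested.

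Of the 22 regulators of the programme, 21 were tested, 4 rose (Tead3, Srf, Foxo4 and Tgfb1) and 2 fell (Wwtr1 and Myocd); Tcf21 was listed at 0 in every library. These 6 of 21 calls are again close to the 29.0% called over all genes, where 10.3% were higher and 18.7% lower. Without wild-type library 1 there were 7 higher and 3 lower (24.3% and 39.9% of all genes), and without wild-type libraries 2 and 3 there were 2 higher and 1 lower (2.53% and 1.92% of all genes). Tead3, a factor that binds the MCAT element, rose from 12.6 CPM (SD 1.70, n = 3) in wild type to 27.1 CPM (SD 2.32, n = 4) in Tnc-/-, with a log2 fold change of 1.11 (SE 0.17; adjusted p = 0.0067 by edgeR). It kept its call in every alternative but that with the background covariate, where its fold change was 0.81 (SE 0.28; adjusted p = 0.148), also without wild-type libraries 2 and 3. Srf itself rose from 51.4 ± 5.90 to 85.2 ± 8.89 CPM (0.73, SE 0.14; edgeR, adjusted p = 0.00835) and kept its call in each fit that left out 1 library, but not by DESeq2 with Bonferroni adjustment (0.69, adjusted p = 0.0807), with the background covariate (0.46, adjusted p = 0.284) or without wild-type libraries 2 and 3 (0.55, adjusted p = 0.0902). Foxo4, which represses smooth muscle genes by binding myocardin, rose from 74.0 ± 23.7 to 130 ± 8.62 CPM (0.81, SE 0.20; edgeR, adjusted p = 0.0185) but its call was lost in 5 of the 7 fits that left out 1 library (fold changes 0.68 to 0.81, adjusted p from 0.0517 to 0.0812), the exceptions being those without wild-type library 1 and without Tnc-/- library 1. The fold change of Foxo4 was 0.35 without wild-type libraries 2 and 3 (adjusted p = 0.221) and 0.14 with the background covariate (adjusted p = 0.75). Myocd, the coactivator that drives smooth muscle genes with SRF, was at 0.859, 15.0 and 7.65 CPM in wild type and between 0.728 and 0.994 CPM in Tnc-/-. Its wild-type level thus came from libraries 2 and 3, those with the high receptor background.

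Lists of the cell types that carry these genes were read in the same way. Among the 12 mural cell genes 2 rose (Notch3 and Mcam) and 1 fell (Cox4i2), with a median log2 fold change of 0.25. These 3 of 12 calls are below the 29.0% called over all genes, where 10.3% were higher and 18.7% lower. limma voom called 0 (2 higher and 1 lower at an unadjusted p under 0.05), as did edgeR with the background covariate (1 and 0). Without wild-type library 1 there were 6 mural cell genes higher and 1 lower (24.3% and 39.9% of all genes), and without wild-type libraries 2 and 3 there was 1 higher and 0 lower (2.53% and 1.92% of all genes). Their summed level was 980, 751 and 950 CPM in wild type and 822, 1015, 985 and 1084 CPM in Tnc-/-, with overlap. Among the 16 activated fibroblast genes 0 rose and 1 fell, Cdh11, with a median of 0.027, where 10.3% of all genes were higher and 18.7% lower. At an unadjusted p under 0.05, edgeR gave 1 fibroblast gene higher and 1 lower (17.5% and 24.8% of all genes). With adjustment, DESeq2 called 1 higher and 2 lower (12.3% and 22.9% of all genes) and limma voom 0 and 0 (4.09% and 1.55%). Without wild-type library 1, edgeR called 2 higher and 1 lower (24.3% and 39.9% of all genes). Endothelial genes, 12 in number, had 2 higher and 2 lower with a median of -0.011, where 10.3% of all genes were higher and 18.7% lower. Without wild-type library 1 there were 5 endothelial genes higher and 3 lower (24.3% and 39.9% of all genes). Without wild-type library 3 there was 1 past the threshold, where 2229 of all 18116 genes tested were. limma voom called 0 higher and 1 lower (4.09% and 1.55% of all genes), and the covariate left 0 (edgeR; 2 higher and 1 lower at an unadjusted p under 0.05). The 18 skeletal muscle genes had 3 higher and 0 lower (edgeR; 7 and 0 at an unadjusted p under 0.05; DESeq2, 8 and 0; limma voom, 2 and 0), with a median of 0.54; over all genes 10.3% were called higher. Without wild-type library 1, 14 were higher, where 24.3% of all genes were. None was past the threshold without wild-type libraries 2 and 3 (edgeR; 2 higher and 0 lower at an unadjusted p under 0.05) or with the background covariate (1 and 0). All 18 had fold changes above 0 (16 when libraries were scaled by their totals), and Tpm2 at 0.56 was close to that median.

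The genes whose pattern over the 7 libraries was most like the mean of the 10 contractile genes were Tjap1, Amacr, Tmem223, Irgq and Tent4a, with Pearson correlations of log2 CPM of 0.996, 0.958, 0.949, 0.941 and 0.941 and Spearman correlations of 0.893 to 0.964. They were picked as the highest of all tested genes, so no p is given. None of the 5 passed the test between genotypes (edgeR, log2 fold changes 0.15 to 0.35, adjusted p from 0.212 to 0.442). The mean of the 10 itself varied little, from -0.19 in Tnc-/- library 1 to 0.25 in Tnc-/- library 4 on the log2 scale relative to the 7-library mean.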

How the data were processed

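For each library the authors deposited a table of unnormalized counts by gene, as the values show. The submitters' processing notes name FastQC 0.11.9, HISAT2 2.2.1, HTSeq 2.0.2, DESeq2 1.38.3 and the build GRCm39 (mm39); the annotation and the strand setting are not given in the sources used here. The wild-type files list 56980 identifiers and the Tnc-/- files 56941, with 56854 in common, so the genotypes were counted in separate runs. Rows that name no gene held 30.1 to 32.7% of the reads listed for Tnc-/- and were left out. Every column of values was mapped to a sample (0 left over).

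The test was that of edgeR 4.0.16 (R 4.3.3) on the counts: filterByExpr, TMM scaling, robust quasi-likelihood F test with genotype as the 1 term, Benjamini-Hochberg adjustment over 17791 genes, threshold 0.05. CPM use the TMM-scaled library size. A log2 fold change above 0 means higher in Tnc-/-; its SE was taken from the F statistic. Exact permutation tests used log2 CPM with a pseudocount of 0.5 counts over 35 splits. P-values set the genotype difference against the spread between libraries. They cannot separate genotype from counting run. The fit was tested on simulated data. Exon lengths came from GENCODE M21 (GRCm38), promoters from RefSeq.

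Alternatives were DESeq2 1.42.0, limma voom 3.58.1, 2 other scalings, 2 other filters, a receptor-background covariate, a replicate block and leaving out libraries. Named genes are the 10 members, up to 3 called genes with the smallest p from each of 2 lists, Tnc, and the 5 genes most alike in pattern; all others (Flna, Actn1, Myl6, Prkg1, Rock1, Tgfb1, Wwtr1, Myocd, Notch3, Mcam, Cox4i2, Cdh11, Rgs5, Col1a1, Col3a1 and genes listed at 0) were named after their values were seen, and Postn and Fap are named as examples of their list. The members and lists were chosen with earlier results of these data known.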

Additional observations from a re-analysis of the deposited data

Results flagged for a closer look

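In 24 values examined over the 4 Tnc-/- libraries (the 10 contractile genes, 6 genes named from the lists, Tnc and the summed levels of 7 lists), 1 library stood far from the others; chance alone does so in about 1 in 20. It was Myl9 in Tnc-/- library 4, at 119.6 CPM, against 91.4, 88.5 and 90.4 CPM in Tnc-/- libraries 1 to 3. Dixon's ratio, the distance to the next library over the range of all 4, was 0.907 and exceeded its 95% critical value. The same ratio was 0.75 for Acta2 and 0.795 for the summed activated fibroblast genes, which were also highest in that library and did not reach the critical value. Without Tnc-/- library 4 the log2 fold change of Myl9 was 0.36 (edgeR, adjusted p = 0.166).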

How the results depend on the processing

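The log2 fold change of Smtn stayed above 0 in all 17 alternatives, from 0.23 to 1.02, and was past the threshold in 10; those of Myh11 (0.0043 to 0.42) and Tpm2 (0.058 to 0.90) also stayed above 0, the first never past it and Tpm2 only without wild-type library 1. Members past the threshold numbered 0 with DESeq2 and Bonferroni adjustment, the background covariate, the replicate block, or without wild-type libraries 2 and 3, and 0 to 5 over the fits leaving out 1 library; at an unadjusted p under 0.05, DESeq2 gave 3 higher and 1 lower, and in edgeR the covariate gave 0 and 0, the block 1 and 1, and the fit without wild-type libraries 2 and 3 gave 1 and 0. All genes past the threshold numbered 5159, and 1653 with DESeq2 and Bonferroni, 1004 with limma voom, 435 with the covariate, 825 without wild-type libraries 2 and 3, 1932 with the replicate block and 2229 to 14113 leaving out 1 library. Of the 5159, 1830 were higher and 3329 lower, which library totals turned to 951 and 4541, with the median of all genes at -0.24. Context genes past it numbered 31, and 7, 11, 3, 7 and 20 in the same settings and 9 to 68 leaving out 1 library. Signs turned in members not past the threshold, and the cause was not tested. Library totals gave -0.19 for Acta2, -0.19 for Lmod1, -0.021 for Synpo2 and -0.094 for Tjap1. At least 10 counts in every library gave -0.024 for Acta2 and -0.019 for Lmod1, and left Tagln out. The covariate gave -0.36 for Acta2, 2.04 for Tagln, 0.17 for Cnn1, -0.0041 for Myl9, 0.15 for Actg2 and -0.16 for Synpo2. Without wild-type libraries 2 and 3 the values were -0.20 for Acta2, 1.45 for Tagln, 0.063 for Cnn1 and -0.051 for Synpo2. For Tagln, limma voom gave 0.17 and no filter 0.068. Leaving out 1 library gave -0.14 to 0.29 for Acta2, -0.35 to 0.28 for Tagln, -0.39 to 0.0067 for Cnn1 and -0.090 to 0.51 for Lmod1. The replicate block gave -0.13 for Acta2 and 0.32 for Tagln; same-numbered libraries of the genotypes deviated together at -0.0053, 0.10 and -0.0055 (correlations over 17791 genes), so the numbers do not pair the mice. Counts per library were low for Tagln, at 5 to 20, and for Cnn1, Actg2 and Lmod1, at 56 to 265. The part of depth in their spread was not tested.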
